A study of Homo sapiens with 8 samples.

Results

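The enzymes that connect proline, ornithine and glutamate, and the transaminases that move amino groups to and from glutamate, were followed through 8 two-colour expression arrays of human cancer cell lines. The group held 7 genes of the 43317 on the array: PYCR1, ALDH18A1, OAT, GLUD1, GOT1, GOT2 and GPT2. They were chosen by name with their log2 ratios and mock levels in these data already known, so each value below is a description and carries no test. On each array RNA of mock cells carried Cy3 and RNA of treated cells of the same line carried Cy5, and each treatment had 1 array with no dye swap. The number of arrays therefore limits the precision of every value.

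Bisamide, a small molecule described as an inhibitor of pirin (PIR) that was found in a screen on the HSF1 stress pathway, was given to PC3 cells for 24 h or 48 h. PC3 is a prostate cancer line. The other 6 arrays were of cells transfected with 1 strand of a miRNA precursor. T24 (bladder cancer) received miR-140-5p or miR-140-3p, 786-O (renal cancer) received miR-532-5p or miR-532-3p, C4-2 (prostate cancer) received miR-199-3p, and PC3 received miR-125b-1-3p. Per the labels the mock cells had no transfection, so what the transfection did and what the miRNA did cannot be told apart. The labels also list bisamide under transfection, and they give neither its dose nor whether the mock cells received its solvent. Whether mocks of 1 line were the same RNA is not given either.

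Proline is made in mitochondria from glutamate in a short route. ALDH18A1 (P5C synthase) reduces glutamate to the semialdehyde that closes to pyrroline-5-carboxylate, and PYCR1 reduces this to proline. OAT (ornithine aminotransferase) feeds the same intermediate from ornithine. GLUD1 (glutamate dehydrogenase) interconverts glutamate and 2-oxoglutarate in mitochondria, while GOT1 and GOT2 are the cytosolic and mitochondrial aspartate aminotransferases, and GPT2 is the mitochondrial alanine aminotransferase. Growing cancer cells use these enzymes to turn glutamine-derived carbon and nitrogen into amino acids. Several genes of amino acid synthesis are textbook targets of the transcription factor ATF4 in the integrated stress response.

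The 6 transfected miRNAs are shown first because a miRNA recognises its targets mainly through its seed, bases 2 to 8 from the 5′ end, set here in capitals. Sequences are those of RefSeq, written 5′ to 3′. The mature forms of miR-199a-3p and miR-199b-3p are identical, and they stand for miR-199-3p.
miR-199-3p: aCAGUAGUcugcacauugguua
miR-125b-1-3p: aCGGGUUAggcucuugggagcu
miR-532-5p: cAUGCCUUgaguguaggaccgu
miR-532-3p: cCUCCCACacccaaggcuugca
miR-140-5p: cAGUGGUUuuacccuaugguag
miR-140-3p: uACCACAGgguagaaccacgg
No seed was shared, so the 6 miRNAs had 6 different seeds.

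The array carried 8 probes for the 7 genes, 1 for each gene and 2 for PYCR1. All 7 genes were well above background in both channels of all 8 arrays. A gene was read from its brightest probe. On GRCh37, the build of the array design, PYCR1 was read at chr17:79890331-79890390 on the minus strand, ALDH18A1 at chr10:97366137-97366196 (minus), OAT at chr10:126086257-126086316 (minus), GLUD1 at chr10:88811026-88811085 (minus), GOT1 at chr10:101157225-101157284 (minus), GOT2 at chr16:58741037-58741096 (minus) and GPT2 at chr16:46964768-46964827 (plus). Thus 4 of the 7 genes lie on chromosome 10. Exon and UTR annotation of that build was not used here.

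Arrays were checked through their signals and line markers. Median raw signals of the arrays were 22.7 to 24.9 in Cy3 and 18.7 to 23.1 in Cy5, and 0 spots were saturated. KLK3, the prostate-specific antigen, had a log2 mock level of 13.80 in C4-2 and was not well above background in any other mock. The 3 PC3 mocks were not alike: EPCAM, an epithelial adhesion gene, read 6.94 and 6.96 in the mocks of the bisamide arrays and 8.40 in that of the miR-125b-1-3p array. PAX8 and PAX2, known from kidney, were well above background in the mocks of both 786-O and T24. PAX8 was so in the PC3 mocks too, at the lower levels of 5.91 to 5.96. The leukocyte genes PTPRC and CD3E stayed between 5.79 and 6.55 in every mock. PTPRC was nonetheless well above background in every mock, and CD3E in those of C4-2, 786-O and T24.

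Under bisamide 5 of the 7 members read above mock at each time, where 54.2% of all genes did. OAT was among the 5 at 24 h only and ALDH18A1 at 48 h only. At 24 h the log2 ratio of treated over mock was 0.70 for PYCR1, 0.70 for GPT2, 0.32 for GOT1, 0.27 for GLUD1, 0.10 for OAT, −0.0035 for ALDH18A1 and −0.10 for GOT2. Only PYCR1 and GPT2 passed 0.5, the size counted here. That size is above the spread of the Cy3 level of a gene between the PC3 mocks. The root mean square SD was 0.147 over 17772 genes, and 0.106 between the mocks of the bisamide arrays alone. Among the members the SD between PC3 mocks ran from 0.081 for GPT2 to 0.196 for GLUD1. This spread does not measure how far a ratio would vary between repeated treatments. Of all genes well above background in both channels on the 24 h array, 1.05% were higher by over 0.5 and 0.411% were lower. GPT2 ranked 87th and PYCR1 90th from the highest of 19241 genes. In cultures read in bulk, a different number of cells of a kind and a different amount of RNA per cell cannot be told apart.

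The first and the last enzyme of proline synthesis differed under bisamide. PYCR1 stood 1.62-fold above mock at 24 h and 1.27-fold at 48 h, with a log2 ratio of 0.35 at the later time. ALDH18A1, which supplies the substrate of PYCR1, read −0.0035 and 0.02 at these times, well inside the spread between mocks. OAT, the other entry to the route, read 0.10 and −0.06. Of these 3 genes PYCR1 alone passed 0.5, and it did so at 24 h and at its brighter probe. Its dimmer probe read 0.26 and 0.07, and the mean over its probes was 0.48 and 0.21.

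GPT2 and GLUD1 were ordered differently by time. GPT2 read 0.70 at 24 h (1.63-fold) and 0.32 at 48 h (1.25-fold). GLUD1 read 0.27 and 0.498, so its later value lay just short of the counted size and placed it 175th of 19020 genes. GOT1, the cytosolic aspartate aminotransferase, read 0.32 and 0.24, while its mitochondrial counterpart GOT2 read −0.10 and −0.08. This difference depended on the correction for dye bias, as given below. At 48 h no member passed 0.5, where 0.91% of all genes were higher and 0.883% lower. That count rests on the setting: GLUD1 passed with an offset of 0 (0.52), plain subtraction (0.53) or no background correction (0.51), and PYCR1 passed when its median over the miRNA arrays was taken off (0.66). The difference between 24 h and 48 h was 0.35 for PYCR1, 0.38 for GPT2 and −0.23 for GLUD1 and was not tested, since each time had 1 array. The mocks of the 24 h and 48 h arrays differed as well. GLUD1 read 8.14 and 7.89 in them, PYCR1 11.16 and 11.44, and GPT2 6.91 and 7.04. A change in treated cells and a difference between these mocks therefore cannot be told apart.

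The median of the 7 members was 0.27 at 24 h and 0.24 at 48 h, against 0.013 and 0.012 for all genes. Of all genes, 54.2% were above 0 at each time. These values depend on the correction for dye bias. Raw signals of PYCR1 at 24 h were 3390 in Cy3 and 11066 in Cy5, and those of GPT2 were 115 and 337, whereas GOT2, read at −0.10, had 5760 and 10958. Loess removes such a difference where genes of the same brightness share it. With the array centred on its median in place of loess, the median of all genes well above background was itself 0.45 and 0.44. Relative to it PYCR1 stood at 1.17 and 0.84 and GPT2 at 0.80 and 0.42. On that scale GOT1 stood at 0.53 and 0.43 and GOT2 at 0.39 and 0.42, so GOT2 was then above zero.

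**Figure D1:**
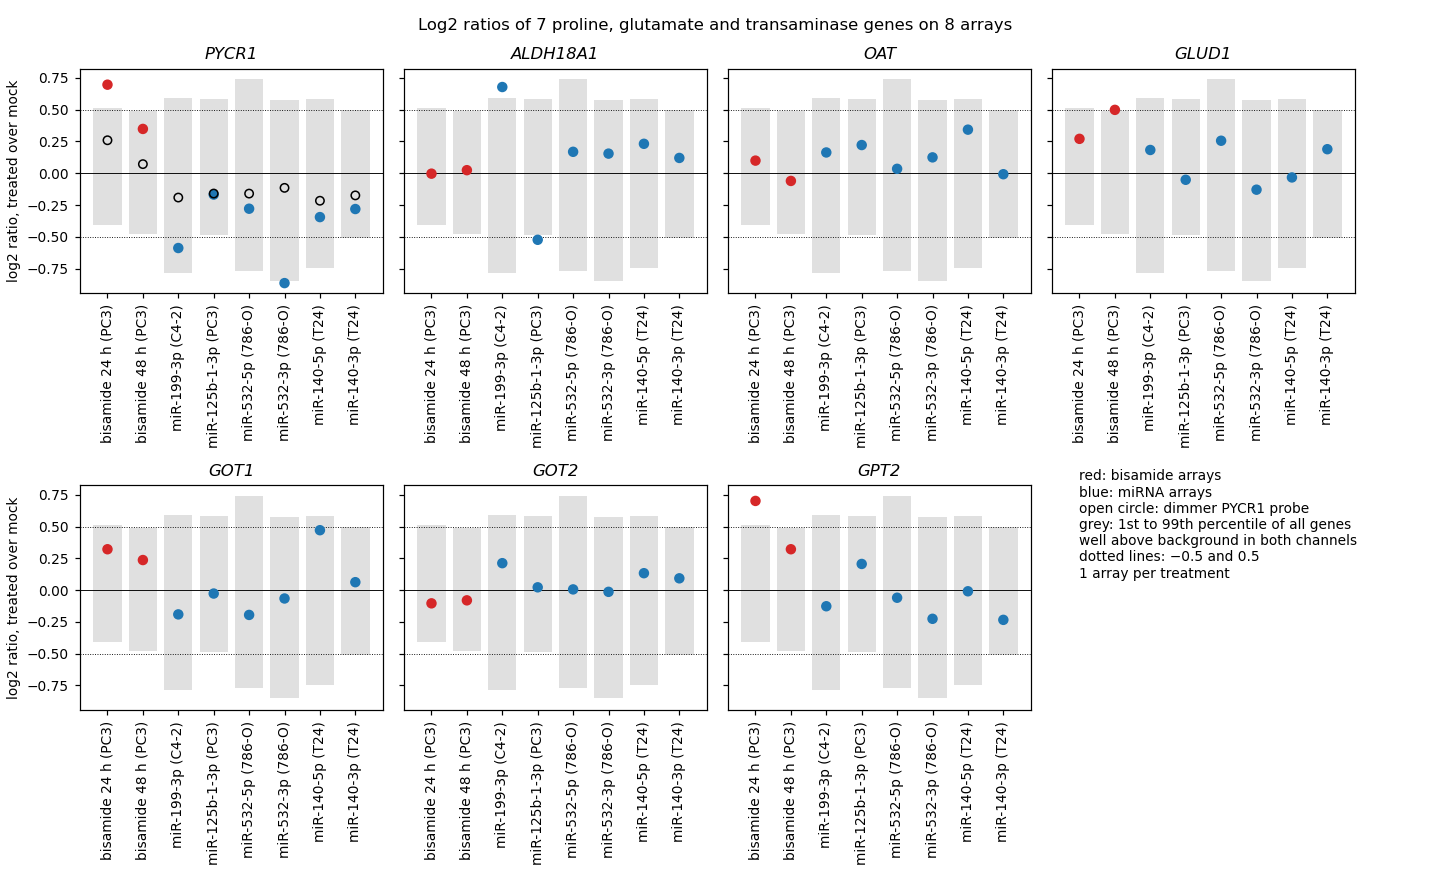
Log2 ratio of treated over mock (vertical axis) for each of the 7 genes on each of the 8 arrays (horizontal axis), with bisamide arrays in red, miRNA arrays in blue, the dimmer PYCR1 probe as open circles and a grey bar from the 1st to the 99th percentile of all genes well above background in both channels. PYCR1 and GPT2 lie above the grey bar at 24 h of bisamide (0.70 each), GLUD1 lies just above it at 48 h (0.498), PYCR1 lies just below it with miR-532-3p (−0.86), and ALDH18A1 leaves it upwards with miR-199-3p (0.68) and downwards with miR-125b-1-3p (−0.52).

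Genes of the integrated stress response were far above mock on the same arrays. ATF4 itself read 1.31 at 24 h and 0.79 at 48 h. ASNS, the asparagine synthetase and a textbook ATF4 target, read 2.79 and 1.86. CHAC1, which degrades glutathione, read 2.63 and 2.17, TRIB3, a pseudokinase, read 2.33 and 1.23, and DDIT3 (CHOP) read 0.97 and 0.51. These 5 genes were picked with these arrays known, so they are context, and their relation to PYCR1 and GPT2 was not tested. All 5 of these genes read higher at 24 h than at 48 h, as did PYCR1, GPT2, GOT1 and OAT among the members. At each time PYCR1 and GPT2 lay below all 5. The mocks of all 5 also read higher on the 48 h array, for ASNS 10.41 against 9.97. How far the mocks bear on the difference between the times was not tested.

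The promoters were searched for TGATGNAA, the core of the element through which ATF4 and its partners bind, on both strands of the RefSeq windows from 250 bases before to 50 bases after the start of a gene (GRCh38.p14). Such a match was held by 3.62% of 35116 promoters. Windows were at hand for 5 of the 7 members, all but PYCR1 and GPT2, and of these GOT1 had a match. Its stretch of 60 bases is set beside those of ASNS and CHAC1, with the match in capitals, to show how the letters compare.
GOT1: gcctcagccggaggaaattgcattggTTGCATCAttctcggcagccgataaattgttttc
ASNS: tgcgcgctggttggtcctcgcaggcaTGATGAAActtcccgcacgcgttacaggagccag
CHAC1: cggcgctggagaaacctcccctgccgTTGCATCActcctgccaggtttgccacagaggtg
These lie at chr10:99430789-99430848 (minus strand), chr7:97872443-97872502 (minus) and chr15:40953236-40953295 (plus). With the start site counted as 0, the match ran from −198 to −191 in GOT1, from −68 to −61 in ASNS and from −209 to −202 in CHAC1, and in GOT1 and CHAC1 it was on the strand opposite to the gene. GOT1 read 0.32 and 0.24 under bisamide. A match of letters is a description of the window and no evidence of binding.

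On the miRNA arrays most members stayed near mock. Of 42 pairs of a member and a miRNA array, 38 lay within 0.5 of zero, 1 was higher and 3 were lower. Over all genes on these 6 arrays, 1.9% of pairs were higher and 2.45% lower. Across all 8 arrays 6 of 56 pairs passed 0.5 in either direction, beside 3.6% of all gene and array pairs, and 0 passed a larger size of 1.5, beside 0.0785%. The largest size was 0.86. With loess, OAT, GLUD1, GOT1 and GOT2 did not pass 0.5 on any array at the main settings. GLUD1 and GOT1 did so under other settings, given with their values. OAT and GOT2 did so with median centring. Relative to the median of all genes on each array, GOT2 then stood at 0.65 in C4-2. In T24 it stood at 0.84 (miR-140-5p) and 0.71 (miR-140-3p), and OAT at 0.53 (miR-140-5p). On the remaining arrays both stayed within 0.5 of zero on that scale. At the main settings the range over the 8 arrays was 1.56 for PYCR1, 1.20 for ALDH18A1, 0.94 for GPT2, 0.67 for GOT1, 0.63 for GLUD1, 0.40 for OAT and 0.32 for GOT2.

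PYCR1 read below mock on all 6 miRNA arrays, the reverse of its sign under bisamide. Its log2 ratio was −0.86 for miR-532-3p and −0.28 for miR-532-5p in 786-O, −0.59 for miR-199-3p in C4-2, −0.35 for miR-140-5p and −0.28 for miR-140-3p in T24, and −0.17 for miR-125b-1-3p in PC3, with a median of −0.31. The arrays of miR-532-3p and miR-199-3p held the low values, at 0.55-fold and 0.67-fold of mock. PYCR1 was 149th from the lowest of 15442 genes with miR-532-3p, where 3.83% of all genes were lower by over 0.5 and 1.71% higher. With miR-199-3p it was 308th from the lowest of 15686 genes, where 2.74% were lower and 1.75% higher. The direction rests on loess for some of these arrays: with median centring, PYCR1 relative to the median of all genes was −0.09 with miR-199-3p (0.21 before that shift of 0.30 is taken off), −0.47 for miR-532-3p and −0.31 for miR-532-5p, and its sign turned on 3 arrays, to 0.14 and 0.15 in T24 (miR-140-5p, then miR-140-3p) and 0.22 in PC3. With the medians of other arrays taken off, PYCR1 was 0.18 for miR-125b-1-3p, 0.07 for miR-532-5p and 0.06 for miR-140-3p. It then stayed below 0 for miR-532-3p (−0.58), miR-199-3p (−0.31) and miR-140-5p (−0.06).

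The PYCR1 probes differed in size. The array design assigns them to different RefSeq transcripts of PYCR1, and whether this bears on the difference was not tested. The dimmer probe, at chr17:79893242-79893301 (minus), read 0.26 and 0.07 under bisamide and −0.12 for miR-532-3p, −0.16 for miR-532-5p, −0.19 for miR-199-3p, −0.22 for miR-140-5p, −0.17 for miR-140-3p and −0.16 for miR-125b-1-3p. It had the sign of the brighter probe on every array, with a smaller size throughout. Its raw Cy3 signals were 31.3 to 56.8, where the medians of the arrays were 22.7 to 24.9, and the offset of 50 added in the background correction shrinks ratios at that brightness. Without the offset it read 0.46 and 0.11 under bisamide, and −0.55, −0.86, −0.50, −0.76, −0.53 and −0.38 on the miRNA arrays in that order. On that scale miR-532-5p, not miR-532-3p, gave its lowest value. Its raw Cy5 signal was 22.5 with miR-532-5p, where the array median was 19.95. With miR-532-3p it was 24.4, where the array median was 18.7. The order of the miRNA arrays thus differed between the probes, but at the dimmer probe it rests on signals near the array medians.

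The brighter PYCR1 probe holds a run that pairs with miR-532-3p. Its transcript strand contains GTGGGAG, the complement of bases 2 to 8 of miR-532-3p, within a run of 10 bases that pairs with miRNA bases 1 to 10. This stretch is shown because it lies in the sequence measured, with the pairing run in capitals.
PYCR1: ccctgcctGTGTGGGAGGgtggttac
It spans chr17:79890365-79890390 (minus, GRCh37). Of the 8 probes searched with the 6 seeds, this was the 1 match. The search was made with the value of PYCR1 known. Among genes well above background on the miR-532-3p array, 60 (0.389%) held these letters in their probe. Their median was −0.14, against −0.00011 for all genes, and 15% of them were lower by over 0.5, against 3.83% of all genes. On the miR-532-5p array, whose miRNA has another seed, 66 genes held GTGGGAG, their median was −0.0048 and 3.03% were lower, against 3.67% of all genes. PYCR1 belongs to these genes, at −0.86 on the first array and −0.28 on the second. Its dimmer probe, which held no match, read −0.12 and −0.16 on these arrays, or −0.55 and −0.86 without the offset. Its Cy5 signals there were near the array medians, as given above. Whether the match bears on the level of PYCR1 was not tested. Only the bases under each probe were searched, and a match does not show that the miRNA acts there.

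ALDH18A1 departed from mock in opposite directions on 2 miRNA arrays. Its log2 ratio was 0.68 for miR-199-3p in C4-2 and −0.52 for miR-125b-1-3p in PC3. It lay between these in T24 (0.23 for miR-140-5p, 0.12 for miR-140-3p) and in 786-O (0.17 for miR-532-5p, 0.15 for miR-532-3p). It was 90th from the highest with miR-199-3p (1.60-fold) and 142nd from the lowest of 18693 genes with miR-125b-1-3p (0.70-fold), where 0.883% of all genes were lower by over 0.5 and 1.77% higher. On the miR-199-3p array PYCR1 read −0.59, or −0.09 relative to all genes with median centring, and −0.19 at its dimmer probe. With median centring the 2 values of ALDH18A1 were 1.18 and 0.0045, or 0.87 and −0.42 relative to the median of all genes on each array. The PC3 mock of the miR-125b-1-3p array is the one whose EPCAM level differed from the other PC3 mocks, and whether that bears on ALDH18A1 was not tested.

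The other members kept near mock. OAT read 0.34 with miR-140-5p and between −0.0078 and 0.22 on the other miRNA arrays. GLUD1 read 0.18 for miR-199-3p, 0.26 for miR-532-5p and 0.19 for miR-140-3p, with the others from −0.13 to −0.03. GOT1 read 0.47 with miR-140-5p, where it ranked 370th from the highest of 17624 genes and passed 0.5 with plain subtraction (0.505), with the scanner's ratio (0.503) and with the medians of other arrays taken off (0.54), and between −0.20 and 0.06 elsewhere. GOT2 stayed between −0.01 and 0.21 on all 6, and GPT2 between −0.23 and 0.21. GPT2 and GOT1, both above mock at 24 h and 48 h of bisamide, had values on either side of zero here.

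No member passed 0.5 on the arrays of miR-532-5p, where 3.61% of all genes were higher and 3.67% lower, of miR-140-5p (1.74% and 2.89%) or of miR-140-3p (0.992% and 1.1%). The member median was 0.13 for miR-140-5p and 0.06 for miR-140-3p in T24, 0.0057 for miR-532-5p and −0.07 for miR-532-3p in 786-O, 0.16 in C4-2 and −0.03 in transfected PC3, beside medians of all genes from −0.00011 to 0.016. The count of 1 higher and 3 lower became 22 higher and 0 lower with median centring, which moved the median of all genes by up to 0.45.

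The mock channels give the level of each gene in mock cells of the 4 lines. Levels are log2 Cy3 signals made comparable between arrays, and they are compared here for 1 probe at a time, never between genes. The mock level was among the values that chose the members, so these are descriptions. Neighbouring lines in an order are called apart when the gap between their nearest mocks exceeded the widest range within a line. C4-2 had 1 mock and so no spread of its own.

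PYCR1 was highest in C4-2, at 12.27. It read 11.59 and 11.60 in 786-O, 11.16, 11.44 and 11.31 in PC3 (mean 11.30 ± 0.14, SD, n = 3) and 10.73 and 10.79 in T24. C4-2 stood apart from 786-O and PC3 from T24, while 786-O and PC3 did not differ beyond their spread. ALDH18A1 had a similar leading pair, with 8.32 in C4-2 and 8.22 and 8.21 in 786-O, not apart from each other. Below them came T24 (7.53 and 7.56) and PC3 (7.41, 7.54 and 7.63), again not apart from each other. Raw Cy3 signals of ALDH18A1 had another order: 173 in C4-2, 159 and 155 in 786-O, and 191, 209 and 243 in PC3. The gap between the highest and the lowest line was 1.51 for PYCR1 and 0.79 for ALDH18A1, the smallest of the 7.

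OAT and GLUD1 were highest in 786-O after quantile normalization. Scaled to the 75th percentile, OAT was highest in PC3, and its raw Cy3 signals were 299 and 263 in 786-O and 454, 458 and 401 in PC3. After quantile normalization OAT read 9.07 and 8.91 in 786-O, 8.40, 8.48 and 8.21 in PC3, 7.89 in C4-2 and 7.76 and 7.90 in T24. 786-O stood apart from PC3 and PC3 from C4-2, while C4-2 and T24 overlapped. GLUD1 read 9.34 and 9.37 in 786-O, 9.14 in C4-2, 8.66 and 8.64 in T24 and 8.14, 7.89 and 8.28 in PC3. Here the one step beyond the spread was from C4-2 to T24.

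The aminotransferases split by line. GOT1 read 9.84 in C4-2 and was apart from all others, which were T24 (8.48 and 8.35), 786-O (8.40 and 8.28) and PC3 (8.02, 7.82 and 8.08). GPT2 also led in C4-2, at 8.87, followed by 786-O (7.55 and 7.53), T24 (7.31 and 7.40) and PC3 (6.91, 7.04 and 6.89). Its C4-2 and PC3 levels were each apart from their neighbour. GOT2 was highest in T24, with 12.27 and 12.39, followed by PC3 (11.93, 11.80 and 11.57), C4-2 (11.36) and 786-O (11.32 and 11.21). No neighbours of GOT2 were apart, although T24 was apart from 786-O. The gap from the highest to the lowest line was 1.93 for GPT2, 1.86 for GOT1, 1.25 for GLUD1, 1.15 for OAT and 1.06 for GOT2.

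In all, 6 of 7 members differed by over 1 between lines, beside 33.6% of 12744 genes well above background in every mock. The median gap was 1.25 for the members and 0.75 for those genes. PC3 had the lowest mean level of ALDH18A1, GLUD1, GOT1 and GPT2, and of these GPT2 alone was apart there from the next line. Leaving out the PC3 mock of the miR-125b-1-3p array kept 6 of 7 members above 1, and PC3 was then apart from T24 for GLUD1, from 786-O for GOT1, and from both T24 and C4-2 for GOT2. When arrays were scaled to their 75th percentile in place of quantiles, 5 members were over 1. The gap between the highest and the lowest line then fell to 0.29 for ALDH18A1 and 0.54 for GLUD1, and became 1.501 for GOT2. Some orders turned under that scaling: OAT was highest in PC3 and lowest in C4-2 (1.12), ALDH18A1 was lowest in T24, and GOT1 was lowest in 786-O (1.499).

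**Figure D2:**
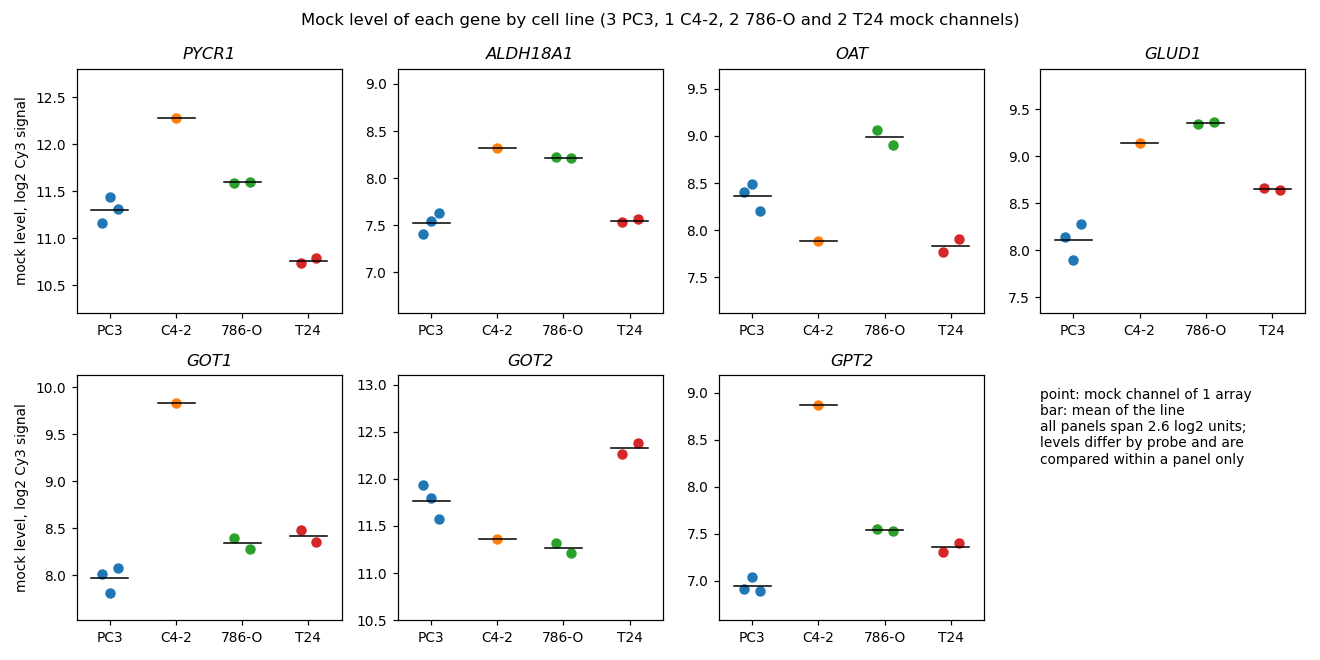
Mock level (log2 Cy3 signal, vertical axis) of the 7 genes in PC3, C4-2, 786-O and T24 (horizontal axis), where a point is the mock channel of 1 array and a bar the mean of the line, and all panels span 2.6 log2 units. After quantile normalization C4-2 holds the highest point for PYCR1, ALDH18A1, GOT1 and GPT2, 786-O for OAT and GLUD1, and T24 for GOT2.

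Other genes of the same routes were read from 5 lists of 50 genes on the array, written with these data known. Under bisamide 2 of 38 measured genes were higher by over 0.5 at 24 h and 2 of 38 at 48 h, with 0 lower at either time, where 1.05% and 0.91% of all genes were higher. These were ASNS, which uses glutamine as its amino donor (2.79 and 1.86), and PSAT1, the phosphoserine aminotransferase of serine synthesis (1.70 and 1.31). The median over the lists was 0.04 and −0.03. Of the 6 measured genes of the proline list and the 6 of the malate-aspartate shuttle, 0 passed. Relatives of 2 members, which the naming rule did not select, read lower than PYCR1 and GLUD1: PYCRL, a relative of PYCR1, 0.04 and 0.13, and GLUD2, the relative of GLUD1, 0.13 and 0.11. GLUD1 and GLUD2 are near-identical copies, so it is uncertain which of them each probe measured. GPT, the cytosolic counterpart of GPT2, was not well above background in both channels of any array.

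On the miR-199-3p array 1 of 42 measured genes was higher and 6 were lower, with a list median of −0.0013, where 1.75% of all genes were higher and 2.74% lower. ASNS read −1.25 and PSAT1 −0.89, the reverse of their sign under bisamide. BCAT1, the cytosolic branched-chain aminotransferase, read −0.55, ALDH4A1, which oxidises the proline intermediate back to glutamate, −0.55, and ARG2, the mitochondrial arginase, −0.72. The aspartate-glutamate carriers of the mitochondrial membrane parted, SLC25A12 at 0.51 and SLC25A13 at −0.50.

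On the miR-532-5p array 7 of 36 genes were lower and 0 higher, with a median of −0.11, where 3.67% of all genes were lower and 3.61% higher. They were BCAT1 (−1.57), ASNS (−1.33), CTPS1 (−1.25), which makes CTP with glutamine nitrogen, PSAT1 (−0.86), the malate dehydrogenase MDH2 (−0.79), ASS1 of the urea cycle (−0.69) and spermine synthase SMS (−0.51). The 7 members themselves stayed within 0.28 of zero on this array. Its partner strand miR-532-3p gave 1 of 36 higher, GFPT2 of the hexosamine route (0.91), and 0 lower, where 1.71% of all genes were higher and 3.83% lower.

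In T24, 3 of 39 genes were lower with miR-140-5p and 0 higher, where 2.89% of all genes were lower. GLUL, glutamine synthetase, read −0.99, SLC25A12 −0.78 and the oxoglutarate carrier SLC25A11 −0.54. With miR-140-3p 1 of 41 was lower, ASS1 (−0.53), as were 1.1% of all genes. With miR-125b-1-3p 0 of 40 passed in either direction. GLUL makes glutamine from the glutamate that GLUD1 can also use, and GLUD1 read −0.03 on the miR-140-5p array.

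**Figure D3:**
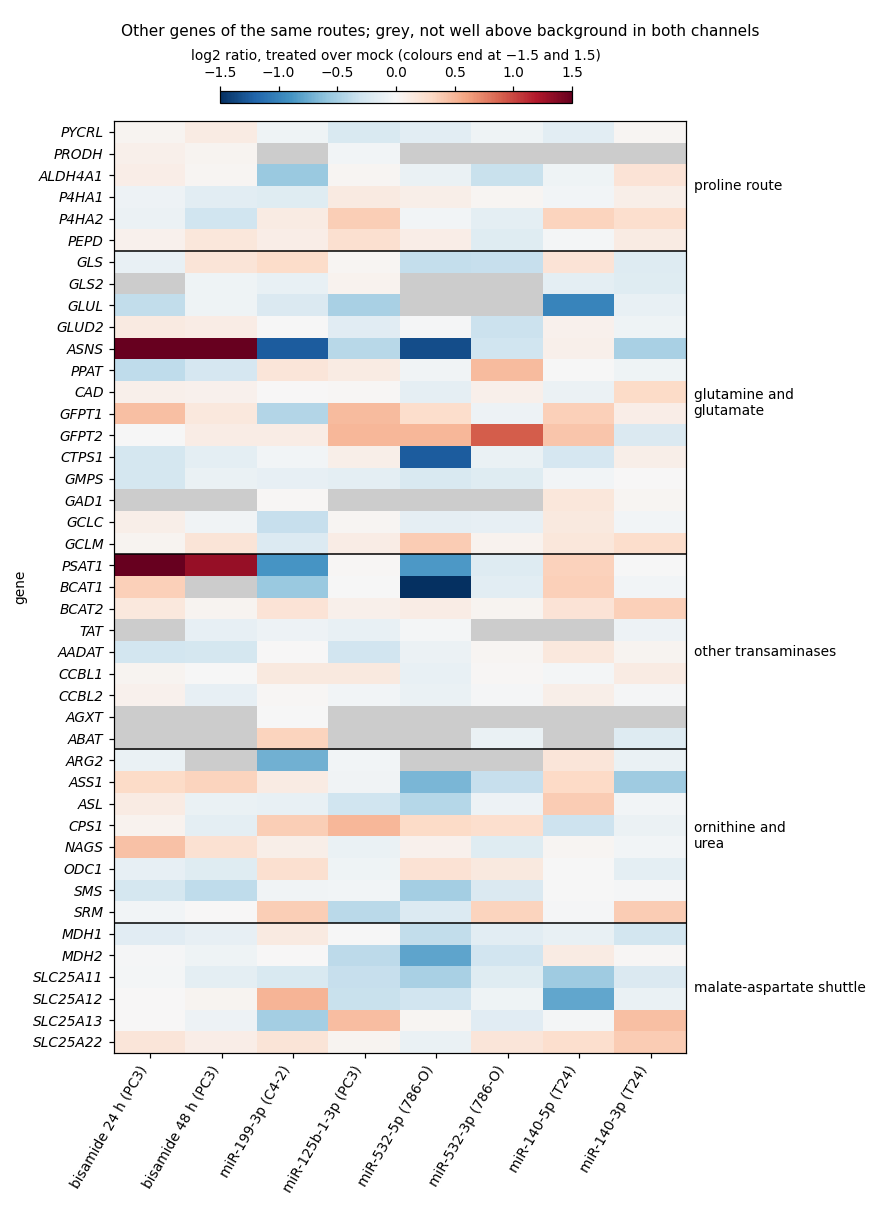
Log2 ratio of treated over mock, as colour from blue (lower) to red (higher) with colours ending at −1.5 and 1.5, for the listed genes (rows, grouped by list) on the 8 arrays (columns), with grey where a gene was not well above background in both channels. ASNS and PSAT1 are the dark red cells under bisamide (2.79 and 1.70 at 24 h) and are blue with miR-199-3p and miR-532-5p, where the lowest cell is BCAT1 (−1.57).

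The genes whose log2 ratios ran closest to those of the 2 members with a range over 1 were sought among the 12579 genes that both channels of all 8 arrays showed well above background, by the root mean square difference over the 8 arrays. For PYCR1 the 3 nearest were EPRS, which charges tRNA with glutamate and proline (difference 0.19), CTH, which makes cysteine from cystathionine (0.23), and SLC7A1, a carrier of cationic amino acids (0.24). EPRS read 0.57 and 0.44 under bisamide, −0.39 for miR-532-3p, −0.17 for miR-532-5p, −0.71 for miR-199-3p, −0.41 for miR-140-5p, −0.28 for miR-140-3p and −0.31 for miR-125b-1-3p. It was thus below mock on all 6 miRNA arrays like PYCR1, whereas CTH and SLC7A1 were above mock with miR-140-5p, at 0.05 and 0.15. For ALDH18A1 the nearest were ERVMER34-1, a retroviral envelope gene (0.081), and the non-coding RNAs DANCR (0.10) and SNHG9 (0.14). They read 0.68, 0.74 and 0.43 with miR-199-3p and −0.47, −0.45 and −0.35 with miR-125b-1-3p. Likeness here is over 8 arrays that may share mocks, and it is a description of these arrays.

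**Figure D4:**
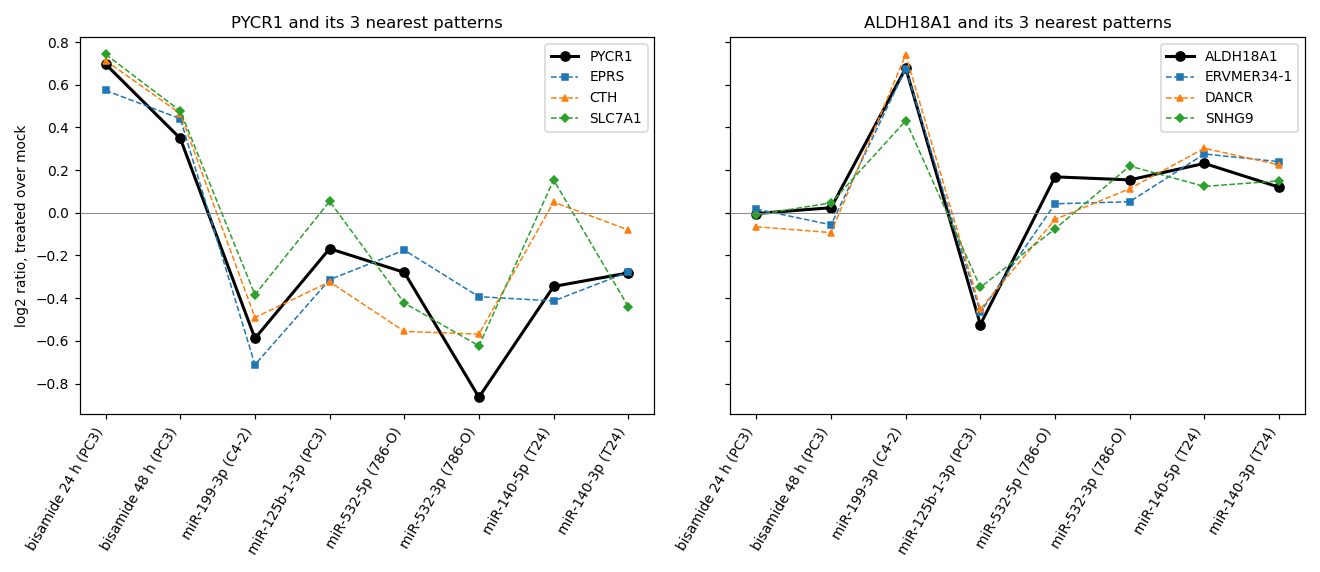
Log2 ratio of treated over mock (vertical axis) on the 8 arrays (horizontal axis) for PYCR1 and ALDH18A1 (black) and, in colour, the 3 genes nearest to each by root mean square difference. The lines join different treatments and mark no course in time beyond the bisamide pair: the PYCR1 set lies above zero under bisamide and mostly below it on the miRNA arrays, and the ALDH18A1 set peaks with miR-199-3p (0.43 to 0.74) and dips with miR-125b-1-3p (−0.52 to −0.35).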

How the data were processed

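RNA of treated cells (Cy5) and mock cells (Cy3) was read on 8 two-colour Agilent arrays with 60-base probes, all on 1 slide. The authors extracted spots with Agilent Feature Extraction 11.5.1.1 (per the file headers). The deposited files hold linear, not normalized intensity: the mean of each spot and the median of its local background, for both dyes. A log10 ratio (Cy5 over Cy3) by the scanner software is deposited too, and the series table repeats it. Coordinates are those of GRCh37.

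Intensities were corrected by normexp (offset 50) and normalized within each array by loess in limma 3.58.1 (R 4.3.3). This gave the log2 ratio, which is not a deposited value. Left out were control spots and, on an array, 126 to 181 outlier spots. Spots of a probe were averaged. The brightest probe by mean log2 intensity stood for its gene. Mock levels are log2 Cy3 signals after normexp and quantile normalization over the 8 Cy3 channels. The steps to the log2 ratio were tested on data simulated from an array. The simulated dye factor was constant, so the test did not cover a dye bias that varies with brightness. No p-value was computed, since each treatment had 1 array. Repeated spots of 300 probes had a median SD of 0.039 to 0.053 on an array.

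The members and all lists were chosen with earlier results of these data known. Named were the 7 members, at most 4 genes of a list on each bisamide array and 2 on each miRNA array past 0.5, 5 stress genes, and the 3 nearest patterns of members with a range over 1. The alternatives were other background corrections, median centring, the scanner's ratio, the series table, the mean over probes, other arrays' medians taken off, a filter on 1 channel, a size of 1.0 and other scalings of the mock. All 8 probe accessions matched RefSeq under the same symbol. Some listed genes are not reported here.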

Additional observations from a re-analysis of the deposited data

How the results depend on the processing

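Median centring in place of loess moved most values. The member medians became 0.94 at 24 h and 0.86 at 48 h of bisamide, 0.73 for miR-140-5p and 0.70 for miR-140-3p in T24, 0.59 for miR-199-3p, 0.27 for miR-532-3p and 0.64 for miR-125b-1-3p, while the medians of all genes became 0.45, 0.44, 0.35, 0.45, 0.30, 0.17 and 0.42 on these arrays. PYCR1 with miR-199-3p turned from −0.59 to 0.21 and ALDH18A1 with miR-125b-1-3p from −0.52 to 0.0045. The cause was not tested. Of the 2 higher values under bisamide, median centring made 14, offset 0, plain subtraction, no background correction and the medians of other arrays taken off each made 3, the mean over probes 1, and a size of 1.0 gave 0. Of the 1 higher value on the miRNA arrays, median centring made 22, plain subtraction, the scanner's ratio, the series table and the medians of other arrays taken off each made 2, and a size of 1.0 gave 0. Of the 3 lower values, median centring left 0, the medians of other arrays taken off 2, the mean over probes 1, and a size of 1.0 left 0. Of 582 values under alternatives, among them leaving out 1 PC3 mock, which was chosen after seeing the data, 466 moved by less than 0.147 (counts by at most 1.5 times), 114 moved further, and 2 that had passed 0.5 changed sign. Changes of sign in values that had not passed 0.5 are among the 114 or, where small, the 466.

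No paired analysis was possible because a treatment had 1 array, and no replicate was there to leave out. The dim GPT2 probe at 24 h of bisamide read from 0.70 to 0.87 over the alternatives other than median centring, and PYCR1 from 0.48 with the mean over its probes to 1.01 with the medians of other arrays taken off.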
